A study of Homo sapiens with 9 samples.

Results

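HK1 is an established cell line grown from a human nasopharyngeal carcinoma, a tumour of the epithelium at the back of the nose. Its own RNA profile was read from 3 control libraries of a series of 9, chosen because their labels name the control siRNA, and no other library was used here. The control cells were transfected with a non-targeting siRNA at 100 nM and harvested 48 h later. They were kept in DMEM with serum, and libraries were made from total RNA, with any step that selected RNA from it not stated here. The values therefore describe transfected, growing cells of a single line, and whether the 3 libraries are separate cultures is not stated in the labels, so the spread between them may be technical. All 58381 genes with an Ensembl identifier were ranked by mean FPKM (fragments counted per kilobase of a transcript's length and scaled by library), a level per unit of transcript length that allows genes to be set side by side. A gene is called expressed below when its mean over the 3 libraries was at least 1 FPKM, and each triplet of values gives control replicates 1, 2 and 3 in that order. With a single group there is no contrast and no test, and the values are a description.

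The nasopharynx is lined by ciliated and secretory columnar epithelium with patches of stratified squamous epithelium, and carcinomas of this site are of epithelial, mostly squamous, lineage. Squamous epithelium grows from a basal layer that carries p63, basal keratins and hemidesmosomes, the anchors to the basement membrane. As cells leave that layer they replace these genes with those of the cornified envelope. Keratins are built from pairs of a type I and a type II chain, and simple epithelia use another pair (KRT18 and KRT8) than basal squamous cells (KRT14 and KRT5).

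The 5 genes that mark basal squamous cells were all expressed, and they spread over a wide range of ranks. KRT17, a type I keratin of activated and basal keratinocytes (chr17:41619441-41624842, minus strand, GRCh38), stood at 751, 740.2 and 809.7 FPKM and ranked 140 of all genes. ITGB4, the β4 integrin of hemidesmosomes (chr17:75721328-75757818, plus strand), was at 126, 117 and 129 and ranked 816. EGFR, the epidermal growth factor receptor (chr7:55019021-55211628, plus strand), was at 86.5, 86.7 and 87.01 and ranked 1263. These 3 genes, like KRT14 and TP63 below, varied little between libraries. KRT14, the usual basal partner of KRT5 (chr17:41582279-41586921, minus strand), was at 58.8, 52.9 and 57.3 and ranked 2059. TP63, the gene of the squamous master regulator p63 (chr3:189631416-189897279, plus strand), was at 48.1, 44.5 and 47.5 and ranked 2489. TP63 was thus the lowest of the markers and KRT17 the highest. In no library did KRT14 come near KRT17: the ratio of KRT17 to KRT14 was 12.8, 13.99 and 14.1.

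**Figure D1:**
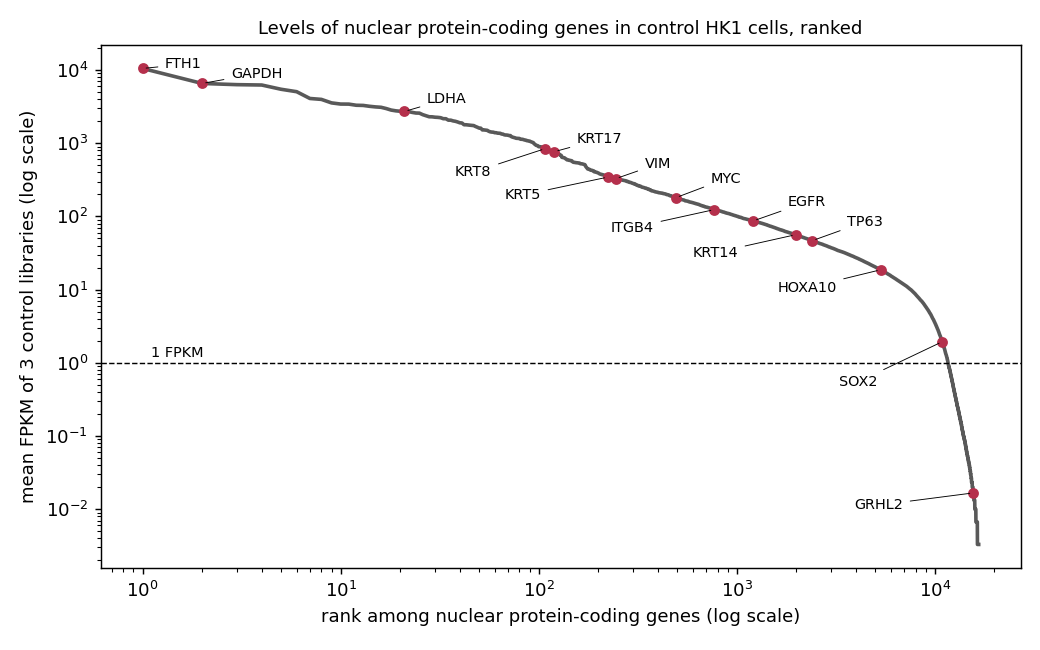
Mean FPKM of the 3 control libraries (log scale) against rank (log scale) for 19868 nuclear protein-coding genes, with genes listed at 0 left off. Red points mark named genes: KRT17 lies at rank 120 of these genes and GRHL2 far below the dashed line at 1 FPKM.

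Of all 58381 genes, 13260 were expressed, 7836 reached 10 FPKM, 1060 reached 100 FPKM and 111 reached 1000 FPKM, while 31999 were listed at 0 in every library. Among nuclear protein-coding genes 58.7% were expressed (11665 of 19868), the background against which the gene lists below can be read. Of the same genes 38.1% reached 10 FPKM and 5.08% reached 100 FPKM. Long noncoding genes were expressed in 983 of 14637 cases (6.72%). The libraries differed in depth: 1 fragment on 1 kb of transcript was worth 0.0451, 0.0531 and 0.037 FPKM, read from the steps between low values of 2636 single-exon genes, so that replicate 3 was 1.22 times and replicate 2 0.851 times as deep as replicate 1. Across the 13260 expressed genes, Pearson correlations of log2(FPKM + 1) between libraries were 0.985 to 0.987, and genes are not independent replicates. Of 7562 nuclear protein-coding genes with a mean of at least 10 FPKM, 85.5% lay within a 1.2-fold range over the 3 libraries and 21 (0.278%) spanned more than 2-fold.

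Control replicate 3 stood apart in 1 group of genes, which touches several values below. Genes of granulocytes, monocytes and red cells were higher in it. A list of 47 such genes, drawn up after these values had been seen, summed to 33.05, 31.62 and 363 FPKM, and 43 of the 47 were highest in replicate 3, against 26.2% of nuclear protein-coding genes. Since these values chose the list, that count describes the choice and supports nothing further. S100A9, a subunit of the granulocyte protein calprotectin, was listed at 2.18, 1.8 and 60.8 FPKM, and its partner S100A8 at 1.25, 0.77 and 37.1. LTF, which encodes lactoferrin, was listed at 0.34, 0.29 and 7.11, and MPO, the granule enzyme myeloperoxidase, at 0.22, 0.15 and 2.1. The defensin genes DEFA1, DEFA1B and DEFA3 are copies so alike that reads may fall to any of them, and together they came to 6.07, 6.05 and 108 FPKM. The α-globin copies HBA1 and HBA2 summed to 5.57, 4.74 and 48.3 FPKM. Replicates 1 and 2 were low in each of these genes or sums, and replicate 3 was high in each. In all, 39 nuclear protein-coding genes (0.196%) were at least 2-fold above both other libraries in replicate 3 on the FPKM + 1 scale, against 13 for replicate 1 and 9 for replicate 2, and 26 of the 39 were on that list, which was drawn from them. PTPRC, the pan-leukocyte gene, stood at 0.08, 0.03 and 0.38 FPKM. The source of these transcripts was not tested, and the values do not show that such cells were in the culture. In bulk RNA fewer cells of a type and less RNA per cell cannot be told apart. The list had 18 expressed members, and 9 without replicate 3.

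**Figure D2:**
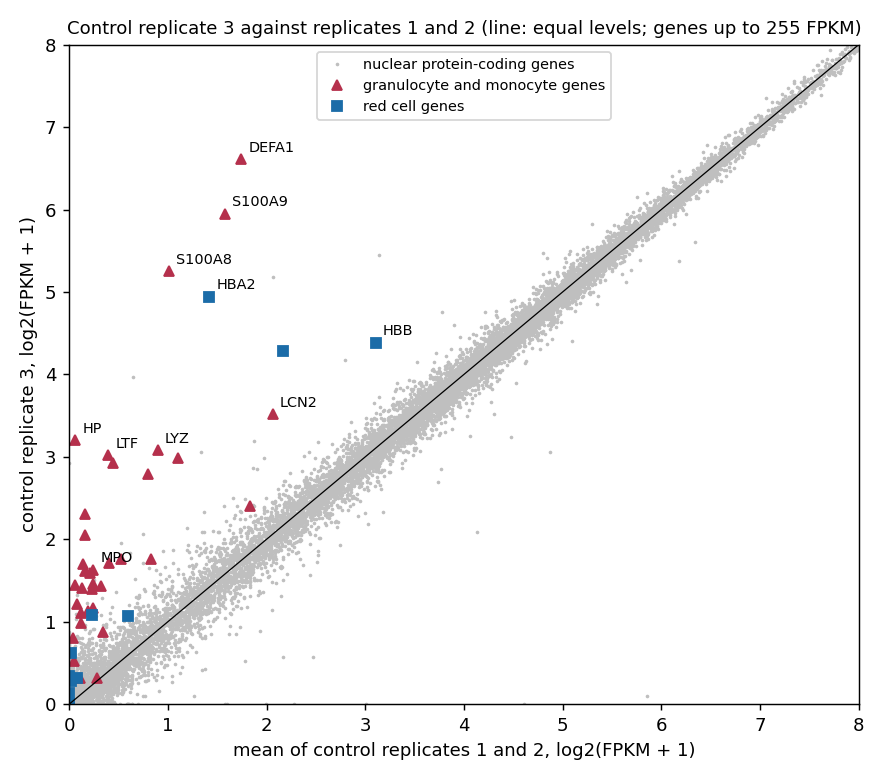
Control replicate 3 (vertical axis) against the mean of replicates 1 and 2 (horizontal axis), both as log2(FPKM + 1), for nuclear protein-coding genes up to the edge of the axes. Of the granulocyte and monocyte genes (red triangles) and red cell genes (blue squares), 43 of 47 were highest in replicate 3, the library whose values chose them, with S100A9 at 60.8 FPKM.

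The most abundant RNAs came from the mitochondrial genome and from housekeeping genes. Mitochondrial genes held 16.1, 16.97 and 16.4% of the summed FPKM (16.5% ± 0.443; SD, n = 3). MT-ATP8, a subunit gene of ATP synthase, ranked first at 46064, 52489 and 47928 FPKM; it is very short and overlaps MT-ATP6, so its reads cannot be told apart from those of its neighbour. The subunits of cytochrome oxidase followed a narrower range, with MT-CO2 at 12547, 12269 and 12134 FPKM and MT-CO1 at 10379.6, 10309 and 10353. MT-ND6, the only one of these mRNAs copied from the other strand, was the lowest of the 13 at 1014, 1237 and 1042. The 100 most abundant genes made up 41.3% ± 0.513 (SD, n = 3) of all FPKM, and 196 genes held as much as all others together.

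Among nuclear protein-coding genes FTH1, the ferritin heavy chain that stores iron, was first at 10550, 9882 and 11114 FPKM. Its light-chain partner FTL was at 3318, 3221 and 3368, and the ratio of the pair was 3.18 ± 0.116 (SD, n = 3). Of the first 20 genes, 12 encode ribosomal proteins, led by RPL41 at 6339, 6439.7 and 6159. The others were FTH1, FTL, GAPDH, EEF1A1, PPIA, TMSB10, ACTG1 and ACTB: iron storage, glycolysis, translation elongation, protein folding and the actin cytoskeleton. Ribosomal proteins and elongation factors together took 21.6% ± 0.303 (SD, n = 3) of nuclear FPKM. Within that list, RPS18 at 24.4, 39.98 and 32.8 FPKM and RPS25 at 16.4, 14.1 and 13.2 sat far below the list median of 1372, while processed pseudogenes such as RPL39P3 were listed at 2558, 4678 and 3219. Ribosomal genes have many near-identical copies, and how the authors' counting divided reads between them is not known, so single members of this family are uncertain.

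The letters of some core promoters are shown because the share with a TATA motif, given by level below and without a test, varied along the range of levels. The TATA box is a short core promoter element a little upstream of the start, best known from highly regulated or very strong promoters, and most housekeeping promoters lack it and are rich in CG. Stretches run 5′ to 3′ from 40 to 11 bases before the RefSeq start (GRCh38.p14), with capitals on a TATAAA or TATATA.
PPIA (chr7:44796641-44796670, plus strand, 5172, 5880.1 and 5339 FPKM): cgaacgtggTATAAAaggggcgggaggcca
EEF1A1 (chr6:73521043-73521072, minus strand, 6129, 6525 and 6067 FPKM): gggagaaccgTATATAagtgcagtagtcgc
RPS27 (chr1:153990722-153990751, plus strand, 4856, 5344 and 4977 FPKM): tagtgtgctcTATATAaggggcaggatttc
TMSB10 (chr2:84905616-84905645, plus strand, 3196, 3134 and 3257 FPKM): gcgcggcgTATATAaggctaggggcgggcg
SLC2A1 (chr1:42958879-42958908, minus strand, 249, 228 and 242 FPKM): ccggggtccTATAAAcgctacggtccgcgc
KRT5 (chr12:52520405-52520434, minus strand, 347, 359.8 and 328 FPKM): ttctggaagggataaaaagggggcatcacc
The first 4 are among the 20 most abundant nuclear protein-coding genes and hold such a motif. Among the same 20, the stretches of GAPDH, RPL41, RPS23, RPS24, RPL39 and RPL35, not shown, hold neither spelling. Nor do those of FTL, RPL12, RPL4, ACTG1, RPL24 and RPS3, so a motif was not the rule among the most abundant genes. SLC2A1 is the glucose transporter described below, and KRT5 is a keratin gene whose stretch holds neither spelling. Each window is that of a single RefSeq start, which need not be the start in use in these cells: those of EEF1A1, SLC2A1 and KRT5 lie more than 250 bases inside the gene span of the deposited annotation.

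Over 10987 protein-coding genes with a single RefSeq promoter window, the share with TATAAA on the coding strand 40 to 15 bases before the start was highest at the 2 ends of the range of levels. It was 11.3% of the 1889 genes listed at 0 in every library and 5.80% of the 2571 genes above 0 and below 1 FPKM. It was 1.19% at 1 to 10 FPKM (2189 genes) and 1.25% at 10 to 100 FPKM (3763 genes), and it was 4.28% at 100 to 1000 FPKM (514 genes) and 6.56% at 1000 FPKM or more (4 of 61 genes: PPIA, RPLP0, ANXA2 and EEF2). The share over all these genes was 4.20%, and on the opposite strand, read as TTTATA, it was 0.737%. TATATA, searched after the stretches had been read, shares letters with TATAAA and can overlap it. With either spelling counted the shares were 13.98% at 0, 7.70% above 0 and below 1 FPKM and 1.74% at 1 to 10 FPKM. They were 1.62% at 10 to 100, 5.45% at 100 to 1000 and 14.8% (9 of 61) at 1000 FPKM or more. That last class holds EEF1A1, RPS27 and TMSB10, whose TATATA had been seen in the stretches, so its share partly describes that choice. The median number of CG in the 300-base window ran the other way at the low end, from 5 in genes listed at 0 to 26 at 1 to 10 FPKM and 28 at 10 to 100 FPKM, and it was 25 at 1000 FPKM or more. For 8108 of the 10987 genes (73.8%) the RefSeq start lay within 250 bases of the 5′ end of the gene span, a restriction added after the data had been seen. Over these the share with TATAAA was 11.6% at 0, 5.86% below 1 FPKM, 1.28% at 1 to 10, 1.196% at 10 to 100, 4.87% at 100 to 1000 and 6.98% (3 of 43) at 1000 FPKM or more. A match is a description of letters and not a tested site.

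HK1 cells carried basal and simple epithelial keratins together. Of 55 keratin genes 13 were expressed (23.6%, against 58.7% of nuclear protein-coding genes), 5 of them above 100 FPKM, and 20 were listed at 0 in every library. KRT8, the type II chain of simple epithelia, was the highest at 845, 846 and 843 FPKM and held 27.9% of all keratin FPKM. Its type I partner KRT18 was at 521, 515 and 517 FPKM, 17.1% of the keratin total. KRT17 held 25.4%, KRT5, the basal type II chain, stood at 347, 359.8 and 328 FPKM and held 11.4%, and KRT7, of simple and glandular epithelia, stood at 279, 295 and 302 and held 9.67%. The simple chain KRT8 exceeded the basal chain KRT5 by 2.45-fold ± 0.112 (SD, n = 3), with no overlap between their libraries. Summed by type, type II keratins came to 1596 ± 14.2 FPKM and type I to 1425 ± 39.4 FPKM (SD, n = 3). The simple pair was less even than these sums, with KRT8 above KRT18 by 1.63-fold ± 0.0114 (SD, n = 3).

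The remaining expressed keratins were lower. KRT80 stood at 69.5, 66.5 and 68.2 FPKM. KRT6A, a keratin of activated and hyperproliferative epithelium, was at 44.5, 44.4 and 48.4 FPKM, while its near-identical copies KRT6B and KRT6C did not exceed 0.07 FPKM; reads may be split among the 3. KRT16, which pairs with KRT6A, was at 8.27, 7.5 and 9.29. KRT13, a suprabasal keratin of mucosal squamous epithelium, was at 29.7, 31.7 and 29.4, and KRT4, the type II chain it pairs with in mucosa, at 0.04, 0 and 0.05. KRT10, of differentiating epidermis, was at 16.3, 14.7 and 16.01, while its partners KRT1 and KRT2 were listed at 0 in every library. The suprabasal type I chains KRT13 and KRT10 were thus present with these type II partners at 0.05 FPKM or below, while KRT16 was present with KRT6A. KRT19, common in simple epithelia and many carcinomas, was at 1.83, 1.74 and 1.54. None of the 17 other type II keratins of differentiated cells and hair follicle reached 1 FPKM, and their sum was at most 0.99 FPKM in a library.

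**Figure D3:**
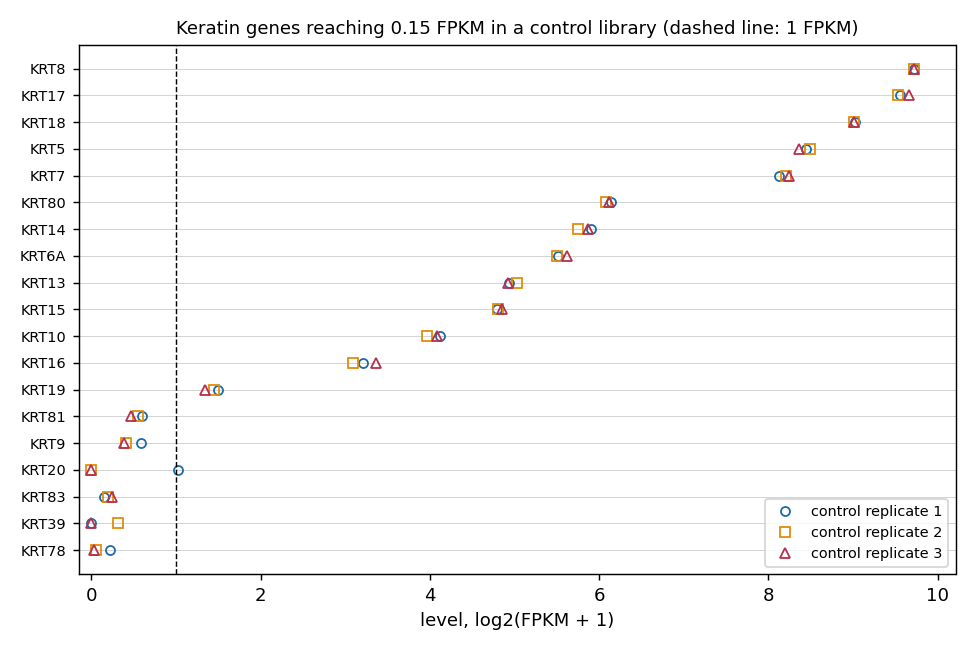
Levels, as log2(FPKM + 1), of the keratin genes that reached 0.15 FPKM in any control library, 1 symbol per library. KRT8, KRT17, KRT18, KRT5 and KRT7 lie at 279 FPKM or more in each library, and KRT81 and those under it lie below a mean of 1 FPKM.

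The genes of attachment to the basement membrane were complete. All 11 genes of the hemidesmosome, its laminin and their receptors exceeded 10 FPKM, a level reached by 38.1% of nuclear protein-coding genes. CD151, a tetraspanin of hemidesmosomes, stood at 169, 154 and 184 FPKM, COL17A1, the transmembrane collagen of the same plaque, at 67.02, 57.05 and 65.1, and ITGA6, the partner of ITGB4, at 72.1, 77.2 and 75.1. The cytoskeletal linker DST was at 44.8, 42.5 and 42.7, and PLEC, another linker, at 38.6, 36.9 and 36.8. The mRNAs of its laminin chains were unequal: LAMB3 was at 132, 129 and 132 FPKM and LAMA3 at 13.01, 13.1 and 11.5. LAMB3 exceeded LAMA3 by 10.5-fold ± 0.862 (SD, n = 3).

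Of 20 transcription factor genes tied to squamous and stratified epithelium, 14 were expressed (70%, against 58.7% of nuclear protein-coding genes). KLF5, a factor of proliferating basal epithelium, was the highest at 75.3, 72.2 and 77.4 FPKM. TFAP2A, an AP-2 factor of ectoderm, was at 42.6, 41.9 and 41.7, ELF3, an epithelial ETS factor, at 39.7, 37.7 and 39.1, and KLF4, a factor of barrier differentiation, at 35.9, 34.2 and 36.8. Each of these varied little between libraries. SOX2, often amplified in squamous carcinomas of other sites, was at only 1.65, 2.15 and 2.03 FPKM. The grainyhead factor GRHL2, a guardian of epithelial state, was at 0.02, 0.02 and 0.01 and GRHL1 at 1.89, 1.5 and 1.5. ZNF750, which drives late differentiation and is mutated in squamous cancers, was at 0.36, 0.42 and 0.32, and TFAP2B was listed at 0 in every library. Of the regulators of epithelial splicing, ESRP1 was at 8.18, 7.41 and 7.71 and ESRP2 at 6.5, 6.01 and 6.92.

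Most genes of late differentiation were below 1 FPKM, while secreted inhibitors were present. Of 18 cornified envelope genes, 6 were expressed (33.3%, against 58.7% of nuclear protein-coding genes). PPL, which encodes periplakin, stood at 26.7, 26.7 and 26.2 FPKM, TGM1, the transglutaminase that crosslinks the envelope, at 10.6, 9.83 and 11.7, and FLG, which encodes filaggrin, at 2.12, 2.03 and 2.26. IVL, the gene of involucrin, was listed at 0, 0.22 and 0.05, and LOR, SPRR1A, SPRR2A, SPRR3, CRNN and MAL were at 0 in every library. CNFN, or cornifelin, varied most of the 6, at 2.49, 0.77 and 1.36 FPKM. Of 12 serpin and protease genes of squamous epithelium 10 were expressed (83.3%). SLPI, a secreted inhibitor of leukocyte elastase, reached 351.5, 332.4 and 343.3 FPKM, and SERPINB5, or maspin, 32.4, 32.5 and 31.1. KLK5 and KLK7, the proteases that shed cornified cells, did not exceed 0.42 FPKM.

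Cell junction genes were largely present (27 of 33, or 81.8%, against 58.7% of nuclear protein-coding genes). In desmosomes, JUP, or plakoglobin, was at 164, 153 and 171 FPKM, DSP, or desmoplakin, at 73.6, 75.2 and 70.8, and the cadherin DSG2, the form of simple and basal epithelium, at 43.5, 45.8 and 42.5. The squamous cadherin DSG3 was at 6.29, 6.18 and 6.31, and the suprabasal cadherins DSG1 and DSC1 did not exceed 0.01 FPKM in any library. In adherens junctions the catenin CTNNA1 was at 178, 179 and 177 and CTNNB1, or β-catenin, at 162, 157 and 165. CDH1, or E-cadherin, stood at 28.5, 29.4 and 28.5, below CDH3, or P-cadherin, at 36.7, 34.2 and 34.8, and the libraries of these 2 genes did not overlap. CDH2, or N-cadherin, was at 9.27, 10.1 and 10.5, so that CDH1 exceeded it by 2.90-fold ± 0.182 (SD, n = 3). EPCAM, an adhesion molecule of simple epithelia and carcinomas, was at 171, 182 and 170.1. Among claudins CLDN4 was at 25.1, 23.04 and 22.6 and CLDN1 at 3.53, 3.07 and 3.15.

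Mesenchymal genes were expressed beside the epithelial ones in 12 of 13 cases (92.3%, against 58.7% of nuclear protein-coding genes). Most were low: 4 of the 13 reached 10 FPKM, a level reached by 38.1% of nuclear protein-coding genes. VIM, which encodes the intermediate filament vimentin, stood at 338, 319.6 and 326 FPKM, in the range of KRT5. FN1, or fibronectin, was at 53.7, 48.8 and 55.4. Of the transcription factors of epithelial-mesenchymal transition, SNAI2 was at 22.1, 18.96 and 19.6, TWIST1 at 7.62, 6.75 and 7.79, ZEB1 at 2.08, 2 and 2.72 and ZEB2 at 1.39, 1.23 and 1.46. CDH11, a mesenchymal cadherin, was listed at 0 in every library. Of 9 fibroblast genes only COL1A1 was expressed. It stood at 12.5, 13.5 and 12.3 FPKM, but COL1A2, whose product joins it in type I collagen, stood at 0.06, 0.08 and 0.16, and PDGFRA and DCN reached at most 0.03 and 0.14.

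Few genes of the columnar airway lining were expressed (20.7% of 29, against 58.7% of nuclear protein-coding genes). Of 11 ciliated cell genes 2 were expressed, CCDC40 at 2.39, 2.8 and 2.14 FPKM and MCIDAS at 1.28, 1.9 and 1.41, and FOXJ1, the master regulator of cilia, was at 0, 0.02 and 0.05. Of 18 secretory and mucin genes 4 were expressed. MUC1, a transmembrane mucin of many epithelia, was at 41.3, 41.9 and 40.03 and AGR2, a secretory pathway protein, at 3.84, 6.77 and 6.18. The other 2, LYZ at 0.73, 1 and 7.49 and LTF, passed only through replicate 3, and without it 4 of the 29 airway genes were expressed. SCGB1A1, SCGB3A1, BPIFA1 and FOXA3 were listed at 0 in every library, and the gel-forming mucins MUC5AC and MUC5B did not exceed 0.04 FPKM.

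HOX genes, which mark position along the body axis, were expressed in 25 of 39 cases, and none was at 0 in every library. The group of paralogue number 10, usually active in the trunk and limb, was the highest in 3 clusters: HOXA10 stood at 18.6, 19.1 and 18.4 FPKM, HOXC10 at 19.3, 18.2 and 18.6 and HOXD10 at 13.8, 13.4 and 14.2. HOXB has no member of that number, and its highest gene was HOXB7 at 10.9, 11.6 and 14. HOXD11 was at 11.05, 10.2 and 12.1 and HOXC13 at 8.26, 7.91 and 8.15. In the HOXD cluster the anterior genes HOXD1, HOXD3 and HOXD4 did not exceed 0.07 FPKM, which does not describe the other clusters. By cluster, 8 of 11 HOXA, 6 of 10 HOXB, 6 of 9 HOXC and 5 of 9 HOXD genes were expressed. The share of HOX genes expressed (64.1%) was near the 58.7% of nuclear protein-coding genes.

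**Figure D4:**
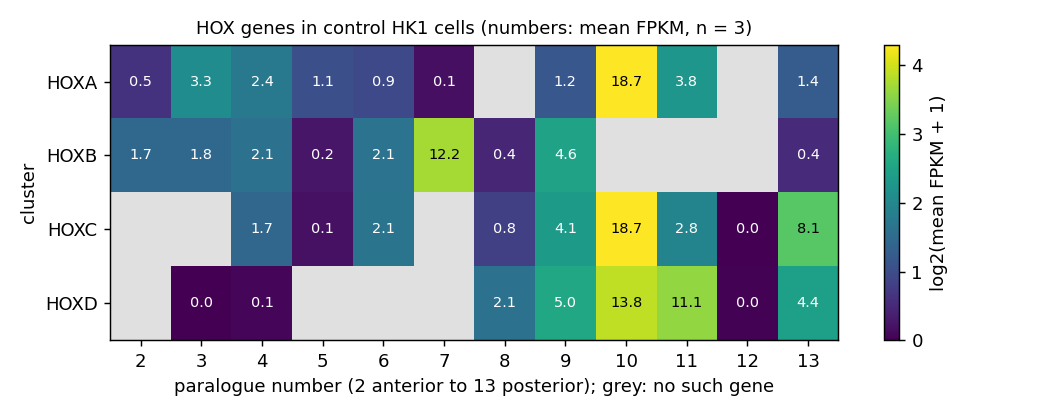
Mean level of HOX genes of paralogue numbers 2 to 13 in the 3 control libraries, by cluster (rows) and paralogue number (columns); colour gives log2(mean FPKM + 1) and the printed number the mean FPKM. The column of paralogue number 10 holds HOXA10, HOXC10 and HOXD10, each at 13.4 FPKM or more in each library.

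Factors that define other lineages were expressed in 10 of 37 cases (27.0%, against 58.7% of nuclear protein-coding genes). GATA2, best known from blood stem cells and also expressed in several epithelia, was the highest at 18.4, 18.1 and 19.4 FPKM. PAX9, a factor of the pharyngeal pouches and oral mucosa, stood at 9.29, 9.47 and 9.03, MITF, the pigment cell factor that other cells also express, at 7.21, 7.16 and 8.49, GATA6 at 7.43, 6.53 and 6.42 and GATA4 at 2.4, 2.98 and 3.89. NKX2-1, the lung and thyroid factor, was at 0.58, 0.82 and 0.55, and GATA3 at 0.52, 0.43 and 0.9. The intestinal factors CDX1 and CDX2, the kidney factor PAX2, the muscle factor MYOD1 and the neural factors NEUROD1 and OLIG2 were listed at 0 in every library. Of 44 markers of other cell types 7 were expressed (15.9%). Among them were TUBB3 at 22.9, 22.7 and 23.4 and CD68, a lysosomal gene used as a macrophage marker, at 19.6, 17.1 and 19.02. The globins HBB and HBA1 were also among them, both highest in replicate 3, with HBB at 8.09, 7.11 and 19.9. ALB of liver, TYR of pigment cells, MYH7 of muscle and KDR of endothelium were at 0 in every library.

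Receptor tyrosine kinases, which carry growth signals across the membrane, were expressed in 26 of 58 cases (44.8%), 14 of them above 10 FPKM. Of nuclear protein-coding genes 58.7% were expressed and 38.1% reached 10 FPKM. DDR1, a collagen receptor of epithelia, was the highest at 145, 145 and 149.9 FPKM. EPHA2, an ephrin receptor, was at 90.4, 87.6 and 90.8, EGFR at 86.5, 86.7 and 87.01, and MET, the hepatocyte growth factor receptor, at 63.6, 66.9 and 62.7. EPHA2 and EGFR are neighbours in this order, and the lowest EPHA2 value, 87.6, lay just above the highest EGFR value, 87.0. Below them came RYK, a WNT receptor, at 49.7, 49.8 and 53.4, AXL at 33.6, 33.5 and 34.2 and EPHB4 at 33.3, 35.5 and 33.04, the last 2 overlapping. ERBB2, the partner of EGFR amplified in breast cancer, was at 20.4, 20.2 and 20.9, 4.24-fold ± 0.0719 (SD, n = 3) below EGFR, ERBB3 was at 1.16, 1.47 and 1.86 and ERBB4 at 0.07, 0.11 and 0.03. FGFR3 stood at 11.9, 13.3 and 14.4, IGF1R, overlapping it, at 12.7, 11.7 and 15.2, and CSF1R, the receptor of macrophages, at 7.6, 7.28 and 7.55. KDR, MUSK, NTRK3, EPHA3, EPHA7, EPHA8 and EPHB6 were at 0 in every library.

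**Figure D5:**
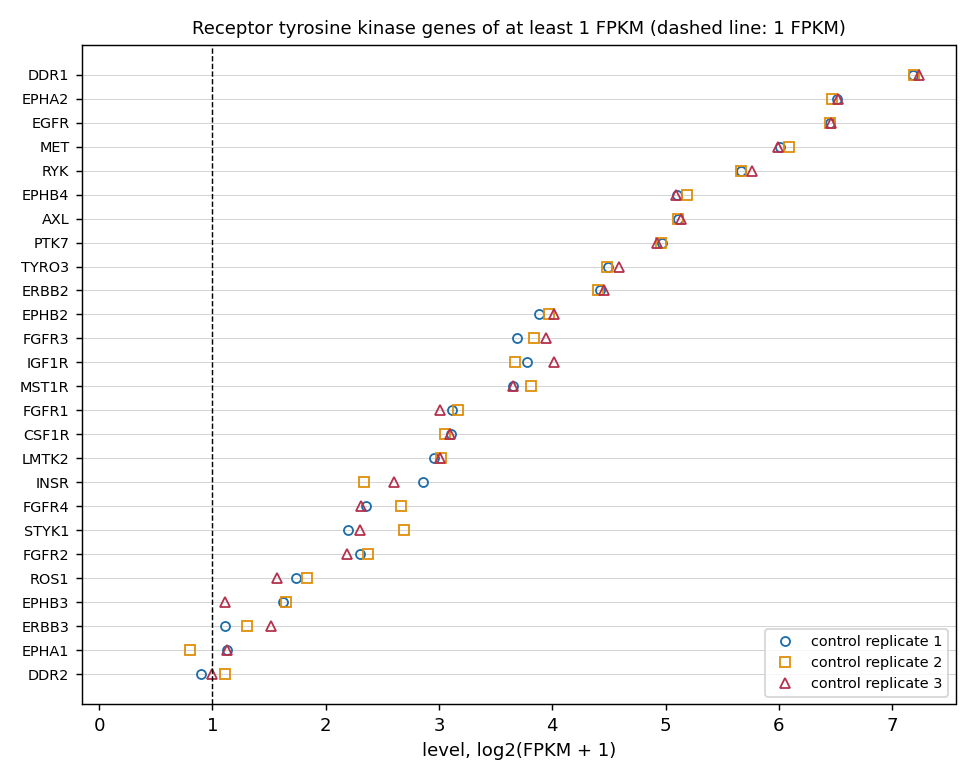
Levels, as log2(FPKM + 1), of the 26 receptor tyrosine kinase genes with a mean of at least 1 FPKM, 1 symbol per control library. DDR1, EPHA2, EGFR, MET and RYK lie at 49.7 FPKM or more in each library.

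EGFR ligands were uneven. AREG, or amphiregulin, was the highest at 18.1, 17.6 and 20.02 FPKM, followed by TGFA at 4.23, 3.87 and 3.96 and HBEGF at 3.65, 2.69 and 3.4. EGF itself was at 0.09, 0.14 and 0.16 and EREG, or epiregulin, at 0.1, 0.04 and 0.03. The sheddases that free these ligands from the membrane were at 82.9, 83.1 and 79.6 for ADAM10 and 21.8, 21.2 and 19.8 for ADAM17. All 24 genes of the downstream RAS, MAP kinase, PI3 kinase and mTOR chain were expressed. HRAS, at 44.9, 46.4 and 43.2, was above NRAS at 28.01, 28.4 and 26.5, and ARAF, at 38.2, 36.7 and 39.9, was above BRAF at 8.09, 7.12 and 6.08. AKT1 was at 85.6, 89.4 and 85.6 and AKT2, its relative, at 59.8, 58.8 and 59.8. Of the PI3 kinase catalytic genes PIK3CB, at 35.7, 32.5 and 30.2, was above PIK3CA, at 7.99, 7.03 and 6.88.

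Of 19 oncogenes 16 were expressed (84.2%, against 58.7% of nuclear protein-coding genes). CDK4, the kinase that starts RB phosphorylation, was the highest at 223, 207 and 212 FPKM, and its partner CCND1, or cyclin D1, a gene often gained in this cancer, was at 75.3, 78.02 and 79.8. MYC stood at 183, 164 and 195, while MYCN did not exceed 0.02. Among the genes that protect against apoptosis MCL1 was at 124, 127 and 124, BCL2L1 at 57.8, 55.96 and 58.2 and BCL2 at 0.68, 0.87 and 0.99. YAP1, the Hippo pathway coactivator, was at 88.2, 84.8 and 82.6. TERT, the catalytic subunit of telomerase, was at 1.15, 1.06 and 0.64, lowest in replicate 3.

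Tumour suppressor genes were expressed in 12 of 15 cases (80%, against 58.7% of nuclear protein-coding genes). CDKN1A, or p21, stood at 100, 96.97 and 97 FPKM, the highest of them. CDKN2A, which encodes p16 and ARF and is often deleted or silenced in nasopharyngeal carcinoma, was at 15.9, 16.1 and 16.5, its neighbour CDKN2B at 7.12, 7.25 and 6.57, and RB1 at 31.9, 32.5 and 32.02. RASSF1, a gene of chromosome arm 3p often silenced in this tumour, was at 13.2, 11.6 and 13.2 FPKM; gene-level values do not tell its isoforms apart. Below 1 FPKM were FHIT at 0.15, 0.43 and 0.21, DLC1 at 0.5, 0.87 and 0.47 and ZMYND10 at 0.08, 0.11 and 0.12. All 15 genes of NF-kB control and chromatin, classes in which this cancer carries mutations, were expressed, with RELA at 80.96, 76.4 and 85.2, LTBR at 73.4, 70.8 and 79.98, NFKBIA at 32.9, 31.2 and 33.8, CYLD at 13.7, 11.6 and 11.3 and TRAF3 at 10.4, 9.64 and 10.4. Expression says nothing on whether a gene is mutated.

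Nasopharyngeal carcinoma is tied to Epstein-Barr virus, and HK1 is known as a line without it; viral RNA was not analysed here. Of 12 genes of receptors and cofactors for viral entry 8 were expressed (66.7%, against 58.7% of nuclear protein-coding genes). Without replicate 3 there were 7, since CD74 stood at 0.42, 0.45 and 2.89 FPKM. EPHA2 and EGFR were given above, MYH9, a myosin heavy chain, stood at 75.1, 74.8 and 78.6, the integrin gene ITGB5 at 19.5, 19.1 and 17.9, its partner ITGAV at 13.2, 14.1 and 12.8, and NRP1 at 1.88, 2.51 and 1.54. CR2, the receptor on B cells, was listed at 0 in every library, and the class II gene HLA-DRA at 0.2, 0 and 0.51. In class I antigen presentation B2M, the common light chain, was at 2098, 1959 and 2143 FPKM. HLA-B was at 39.1, 37.97 and 42.1 and HLA-C at 5.11, 5.78 and 6.15, with no overlap between their libraries. These loci are polymorphic and alike, and the level of a single one is uncertain.

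The glycolytic chain was abundant from uptake to lactate export. Glucose transporters and glycolytic enzymes took 2.79% ± 0.0327 (SD, n = 3) of nuclear FPKM. Of these 40 genes 26 were expressed (65%), near the 58.7% of nuclear protein-coding genes. SLC2A1, or GLUT1, stood at 249, 228 and 242 FPKM and exceeded SLC2A3, or GLUT3, by 62.9-fold ± 3.66 (SD, n = 3). The hexokinase gene HK1, which shares the line's name, was at 71.2, 72.4 and 72.2 and HK2 at 37.7, 37.05 and 36.2. GAPDH was at 6739.7, 6295 and 6631, ENO1, or enolase 1, at 2304, 2324 and 2254 and PKM, pyruvate kinase of muscle and tumours, at 1298, 1284 and 1299.9. LDHA, which makes lactate, was at 2641, 2730.1 and 2780.2 and exceeded LDHB by 2.12-fold ± 0.120 (SD, n = 3). SLC16A3, the lactate exporter MCT4, was at 141, 138 and 142, and SLC16A1, or MCT1, at 5.7, 3.75 and 8.03. SLC2A2, the glucose transporter of liver, was listed at 0 in every library, and PKLR, the liver form of pyruvate kinase, did not exceed 0.04 FPKM.

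Other metabolic genes were present in 33 of 39 cases (84.6%, against 58.7% of nuclear protein-coding genes). SLC7A5, the light chain of the amino acid transporter LAT1, was at 316, 314 and 327 FPKM, and SLC3A2, its heavy chain, at 345, 323 and 333. GLUL, which makes glutamine, was at 0.09, 0.14 and 0.88, low in each library and highest in replicate 3. TKT of the pentose phosphate path was at 409, 394 and 418, SCD, the fatty acid desaturase, at 180.3, 187 and 176, and FASN, the fatty acid synthase, at 92.4, 92.5 and 101. The gluconeogenic genes PCK1 and FBP1 did not exceed 0.25 FPKM, and G6PC was at 0 in every library. Antioxidant and detoxification genes were expressed in 25 of 31 cases (80.6%), led by PRDX1 at 1011, 1044 and 999, GSTP1 at 549.6, 527 and 548 and TXN at 522, 526 and 512. Of the targets of the factor NRF2, TXNRD1 was at 442, 462 and 428 and NQO1 at 189, 199 and 205.

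S100 genes encode small calcium-binding proteins, many of them in a cluster on chromosome 1. They took 0.524% ± 0.0127 (SD, n = 3) of nuclear FPKM, more than all keratins together at 0.448% ± 0.00615. S100A11 was at 1063, 979.6 and 1048 FPKM and S100A2, a p63 target of basal keratinocytes, at 892, 894 and 889.6. S100A10, S100A6, S100A16 and S100A14 were at 200.6 FPKM or more in each library. Of 20 members 12 were expressed (60%, near the 58.7% of nuclear protein-coding genes), and 11 without replicate 3, since S100A12 stood at 0.4, 0.32 and 6.6. S100A7 and S100A7A, which rise in inflamed squamous epithelium, were at 0 in every library.

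Cancer-testis genes, normally restricted to the germ line, were expressed in 3 of 35 cases (8.57%, against 58.7% of nuclear protein-coding genes), all X-linked. MAGEA1 stood at 30.4, 28.5 and 29.8 FPKM, MAGEA4 at 24.97, 26.2 and 23.99 and CT83 at 4.68, 6.09 and 4.8. Their relatives MAGEA3 and MAGEA6 did not exceed 0.03 FPKM, and 14 members, CTAG1B and MAGEC2 among them, were at 0 in every library. All 15 proliferation genes were expressed, including MYBL2 at 165, 155 and 161, PCNA, the sliding clamp of replication, at 129, 132 and 125, and MKI67 at 31.5, 32.1 and 30.8. Of 21 cytokine genes 9 were expressed (42.9%). IL18 stood at 103, 108 and 105 and the angiogenic factor VEGFA at 47.1, 47.5 and 45.2. IL1A was at 21.8, 19.2 and 20.4 and IL6 at 13.6, 13.7 and 18.8, while CXCL8 was at 0.92, 0.61 and 0.99 and TNF at 0.1, 0.06 and 0.02.

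Long noncoding RNAs were a small share of the profile, and 3 of the expressed ones enclose microRNAs known from epithelia or growth. MIR205HG, host of an epithelial microRNA, stood at 64.4, 60.9 and 63.05 FPKM, H19, an imprinted fetal RNA, at 667, 634 and 694, and MIR31HG at 5.56, 5.45 and 6.98. The mature sequences that lie within them are shown to identify these hosts, 5′ to 3′, with the seed (bases 2 to 8) in capitals, from RefSeq on GRCh38.p14.
hsa-miR-205-5p (chr1:209432166-209432187, plus strand, in MIR205HG): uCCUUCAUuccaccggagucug
hsa-miR-675-5p (chr11:1996800-1996822, minus strand, in H19): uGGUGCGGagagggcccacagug
hsa-miR-31-5p (chr9:21512158-21512178, minus strand, in MIR31HG): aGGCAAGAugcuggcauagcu
The 3 seeds differ from one another, and the values are those of the host genes, since mature microRNAs are not measured here. GAS5, a host of small nucleolar RNAs, was at 743, 683 and 659 FPKM, the highest of a chosen list of 17 noncoding RNAs. Of RNAs that stay in the nucleus, NEAT1 was at 179, 199 and 196 and MALAT1 at 115, 139.7 and 149. TERC, the RNA of telomerase, was listed at 0 in every library. Which RNAs the library preparation could capture is not stated here, so that 0 may not mean that the cells lacked it.

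The 10 protein-coding genes of at least 10 FPKM with the widest range between libraries fell into 2 kinds. DEFA1, S100A8, S100A9 and HBA2 are on the granulocyte and red cell list and were highest in replicate 3. They reached a mean of 10 FPKM only through that library, so their place among the 10 follows from the filter. The other 6 are copies or overlap a neighbour. Among them EIF3CL and CBWD6 passed the filter only through replicate 3 and LUZP6 only through replicate 2, so the same limit applies to these. EIF3CL was listed at 5.95, 0.42 and 35.2 FPKM, but its sum with the copy EIF3C was 297, 301 and 304. SMIM11A was listed at 1.36, 16.6 and 13.1, and its sum with SMIM11B was 17.1, 16.9 and 17.2. CBWD6 was listed at 7.75, 7.84 and 42.7, and the 5 CBWD genes summed to 238, 254 and 242. The readthrough gene ATP6V1G2-DDX39B was listed at 13.7, 19.4 and 3.24, and its sum with DDX39B was 159, 160.5 and 161. In these 4 the sum was stable where the single entry was not. LUZP6, within the transcript of MTPN, was listed at 2.33, 44.3 and 0 while MTPN was at 134, 146 and 141. USP41 was listed at 58.9, 55.2 and 0.07 while its copy USP18 was at 14.98, 13.5 and 13.1, so here the sum did not hold: it was 73.9, 68.7 and 13.2 FPKM.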

How the data were processed

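RNA of 3 HK1 libraries given the control siRNA was analysed, and the 6 knockdown libraries were not used here. A mirVana kit was used to extract the RNA and Illumina protocols to make the libraries, per the labels' protocols. The submitters' processing notes name Trimmomatic, TopHat, HISAT2, HTSeq and DESeq with build GRCh38; which step each did, and in which version, is not stated here. Per the file headers the authors deposited FPKM per gene, to 2 decimals. Of the 58381 Ensembl rows 56933 matched GENCODE 29 exactly, 1328 after the version was dropped, and 120 stayed unnamed; 726 assembled loci and 12 rows of text were left out. Means and SDs over libraries, ranks, shares of summed FPKM and counts at 1 FPKM were computed with Python 3.11.15, numpy 2.4.6 and pandas 2.3.3. No count test could be used on FPKM, and 1 group allows none. The step that reads depth was tested on simulated data. Named genes are the 5 markers, the 20 most abundant nuclear protein-coding genes, members of 26 lists in order of level, and the 10 most variable genes of at least 10 FPKM; neighbours and copies of these were added after their values were seen. The members and lists were chosen with earlier results of these data known. Intervals of counts cannot be given for FPKM. Alternatives were other level thresholds, scalings, denominators and each library left out.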

Additional observations from a re-analysis of the deposited data

How the results depend on the processing

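No paired analysis was possible because a single group of libraries was described and no result comes from a test. Of 293 alternatives to 47 counts, shares and ranks, 259 moved counts by at most 1.5 times, shares, ranks and the median SD by at most their SD between libraries or, for the median SD, between pairs of libraries, and shares of promoter windows within their 95% Wilson interval. With no filter 26382 genes were above 0 in any library, against 13260 at 1 FPKM. The share of the 100 most abundant genes was 32.0% over nuclear genes, 42.3% over protein-coding genes and 40.1% with assembled loci in the denominator, and the mitochondrial share was 16.005% with those loci. With all genes, or with nuclear protein-coding genes, in the denominator, keratins took 0.374 or 0.469%, ribosomal and translation genes 18.1 or 22.6%, glycolysis 2.33 or 2.92% and S100 genes 0.437 or 0.548%. At 5 FPKM the counts were 6 for squamous differentiation, 6 mesenchymal genes, 2 airway genes, 7 HOX genes, 4 factors of other lineages, 3 EGFR ligand and sheddase genes, 5 viral entry genes and 7 granulocyte and red cell genes. At 0.5 FPKM they were 11 markers of other cell types, 7 cancer-testis genes and 30 granulocyte and red cell genes. That last list, with alternatives chosen after seeing the data, had 4 members at 1 FPKM in every library, and 9 to 25 with a library left out, the 9 without control replicate 3. Among nuclear protein-coding genes KRT17 ranked 120 and EGFR 1210. The median SD of log2(FPKM + 1) was 0.0853 over expressed genes, 0.0931 with a constant of 0.1, 0 with no filter, 0.0724 at 5 FPKM and 0.0634 to 0.0729 with a library left out. Of 843 named genes, 506 moved by more than 1 SD when each library was scaled to 1 common summed FPKM. That scaling was a factor of 1.23 to 1.24 for every gene. With a common upper quartile 1 moved, and with any library left out 0 moved. That last 0 was fixed in advance, since leaving out 1 of 3 libraries cannot shift a mean by 1 SD of the 3. Shares of FPKM with a library left out, counted among the 259, have the same limit. Levels at or below the 0.037 to 0.0531 FPKM that 1 fragment is worth on 1 kb, such as those of GRHL2, are limited by depth.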

Other observations

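Noncoding and repeated genes added values that belong to no list. UCA1, a long noncoding RNA of bladder and other carcinomas, was listed at 186, 170.05 and 183 FPKM, and ZFAS1, a host of small nucleolar RNAs, at 323, 325 and 333. The processed pseudogene RPL23AP42 was listed at 3267, 3241 and 3186 FPKM, above the 467, 451 and 445 FPKM of RPL23A, the gene it was copied from. RPL39P3 was listed at 2558, 4678 and 3219 FPKM beside RPL39 at 3562, 3437 and 3289, and their sum was 6120, 8115 and 6508, so the sum was no steadier than the gene alone. Of the 726 assembled loci without an Ensembl identifier 598 reached 1 FPKM, and they held 2.98% as much FPKM as the Ensembl rows together. The rows of 5.8S ribosomal RNA, identical copies, were each listed at 144, 41.1 and 183 FPKM, lowest in replicate 2. What set that library apart here was not tested.

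Outside the granulocyte and red cell list, AATF, a regulator of transcription and apoptosis, was listed at 0.70, 0.44 and 14.6 FPKM, the histone gene HIST2H2AA3 at 0, 0 and 6.57, and the immune receptor chain FCER1G at 0.12, 0 and 1.51, each highest in control replicate 3. These genes were chosen after their values were seen, and what sets them apart was not tested.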
